A study of Mus musculus with 10 samples.

Results

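Mucins are long proteins whose repeats of serine, threonine and proline carry dense O-linked sugars. Gel-forming mucins are secreted and make the mucus layer of airways and stomach, while membrane mucins stay anchored at the apical surface of epithelial cells and form its glycocalyx. In the lung, Muc5b and Muc5ac are the main mucins of airway mucus, made by club, goblet and gland cells, and Muc1, Muc4, Muc16 and Muc20 are membrane mucins of the airway and alveolar surface. The genes described here are 10 mucins and mucin-like genes, chosen by symbol: the membrane mucins Muc1, Muc4, Muc13, Muc15, Muc16 and Muc20, the gel-forming mucins Muc5ac, Muc5b and Muc6, and Mucl3, a mucin-like gene whose older symbol is Dpcr1. Of these, 8 had a probe set of their own, 1 each, among 17919 genes measured with a probe set of their own. Muc20 shared its probe set with Muc4 and is described apart from the others, and Muc15 was not listed in the annotation table used here.

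The data come from 10 whole mouse lungs, taken at E18.5 and each profiled on 1 Affymetrix gene array, and the values are log2 probe set levels. The 5 control lungs carried Shh-Cre, a recombinase expressed from the Shh locus and active in the lung epithelium, and their label does not give the Hdac3 alleles. The 5 knockout lungs were Shhcre:Hdac3fl/fl, and thus lacked Hdac3, a histone deacetylase of corepressor complexes, in the epithelium. All lungs share the mixed strain background C57BL/6 and 129X1,129S6. In the cross, Hdac3 fl/fl females were mated with Hdac3 fl/+ ShhCre males, so a Cre-positive control of this cross would be heterozygous for the deletion in its epithelium. In whole lung, fewer cells of a type and less RNA per cell cannot be told apart, and cells without Cre contribute to each value. No label says what the replicate numbers 1 to 5 share.

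Hdac3 itself was lower in the knockout by a log2 change of -0.31 ± 0.065 (SE, limma adjusted p = 0.0203), from 10.67 to 10.90 in controls to 10.34 to 10.61 in knockouts, with no overlap. Omitting control 2 or control 5 raised the adjusted p to 0.0526 or 0.0545. The lung markers Sftpc, Sftpb, Nkx2-1 and Cldn18 each had a mean value above those of at least 96.8% of all genes, so none was absent. Of all genes, 3.12% were called by limma at an adjusted p under 0.05, 1.54% as higher and 1.58% as lower in the knockout; with the replicate number as a block 4.72% were.

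The 2 mucin genes that rose are shown by the 250 bases before their annotated start, 5′ to 3′, beside those of Muc1, a membrane mucin that did not pass the test. They come from RefSeq on GRCm38.p6: Muc4 at chr16:32735636-32735885 on the plus strand, Mucl3 at chr17:35643696-35643945 on the minus strand and Muc1 at chr3:89228806-89229055 on the plus strand. Capitals mark the matches, on either strand, of 8 motifs.
Muc4: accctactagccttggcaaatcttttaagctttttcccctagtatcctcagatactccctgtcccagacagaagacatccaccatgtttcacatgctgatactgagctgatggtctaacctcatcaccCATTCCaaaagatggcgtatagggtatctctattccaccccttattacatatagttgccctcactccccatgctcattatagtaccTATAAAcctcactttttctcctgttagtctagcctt
Mucl3: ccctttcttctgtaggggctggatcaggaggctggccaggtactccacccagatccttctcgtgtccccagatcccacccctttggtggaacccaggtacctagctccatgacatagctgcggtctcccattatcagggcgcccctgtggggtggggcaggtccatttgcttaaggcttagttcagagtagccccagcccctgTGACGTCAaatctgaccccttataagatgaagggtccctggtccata
Muc1: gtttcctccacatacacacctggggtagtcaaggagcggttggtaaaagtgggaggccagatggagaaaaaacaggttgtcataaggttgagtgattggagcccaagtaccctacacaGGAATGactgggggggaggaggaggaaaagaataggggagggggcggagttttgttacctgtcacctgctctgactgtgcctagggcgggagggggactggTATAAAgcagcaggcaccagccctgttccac
The motifs were chosen with these promoters in view. TATAAA stood for the TATA box. The letters TGANTCA stood for AP-1 and those of the cyclic AMP element, CRE, were TGACGTCA. AGGTCA was taken as a nuclear receptor half-site, and for the forkhead factors of the FOXA family the letters TGTTTAC were used. NKX2-1 was searched as CTCAAG. For TEAD factors the letters were GGAATG, and for the grainyhead-like factors, GRHL, they were AACCNGGTT. No match shared bases with that of another motif in the 3 promoters. Muc4 and Muc1 each held TATAAA, beginning 36 and 31 bases before the start, and GGAATG on one of the strands, beginning 122 and 132 bases before it. Mucl3 held TGACGTCA, beginning 47 bases before the start, and none of the other letters. Over 32851 promoter windows of the same length, 12.4% held the TATA box, 12.6% the TEAD letters and 1.55% the CRE; the AP-1 letters were in 6.75%, the half-site in 14.0%, the FOXA letters in 3.17%, those of NKX2-1 in 13.3% and those of GRHL in 0.24%. A match describes the letters only, and the motifs shared by Muc4 and Muc1 stood before 1 gene that rose and 1 that was not called. Neither was found before Mucl3, which rose, or before Muc6, Muc16 and Muc13, which were not called. Of the 10 mucin genes, 7 matched an entry of the promoter table.

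Of the 8 mucin genes with a probe set of their own, 2 rose in the knockout, 0 fell and 6 did not pass the test (limma; 2 had an unadjusted p under 0.05, the same 2 genes). The background is 3.12% of all genes. The median log2 change of the 8 was -0.022, against 0.0042 over all genes. In both genes that rose, every knockout lung lay above every control lung, which 2.44% of all genes did in that direction and 5.11% in either. The plot of the 8 genes by lung shows these 2 apart from the other 6.

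**Figure D1:**
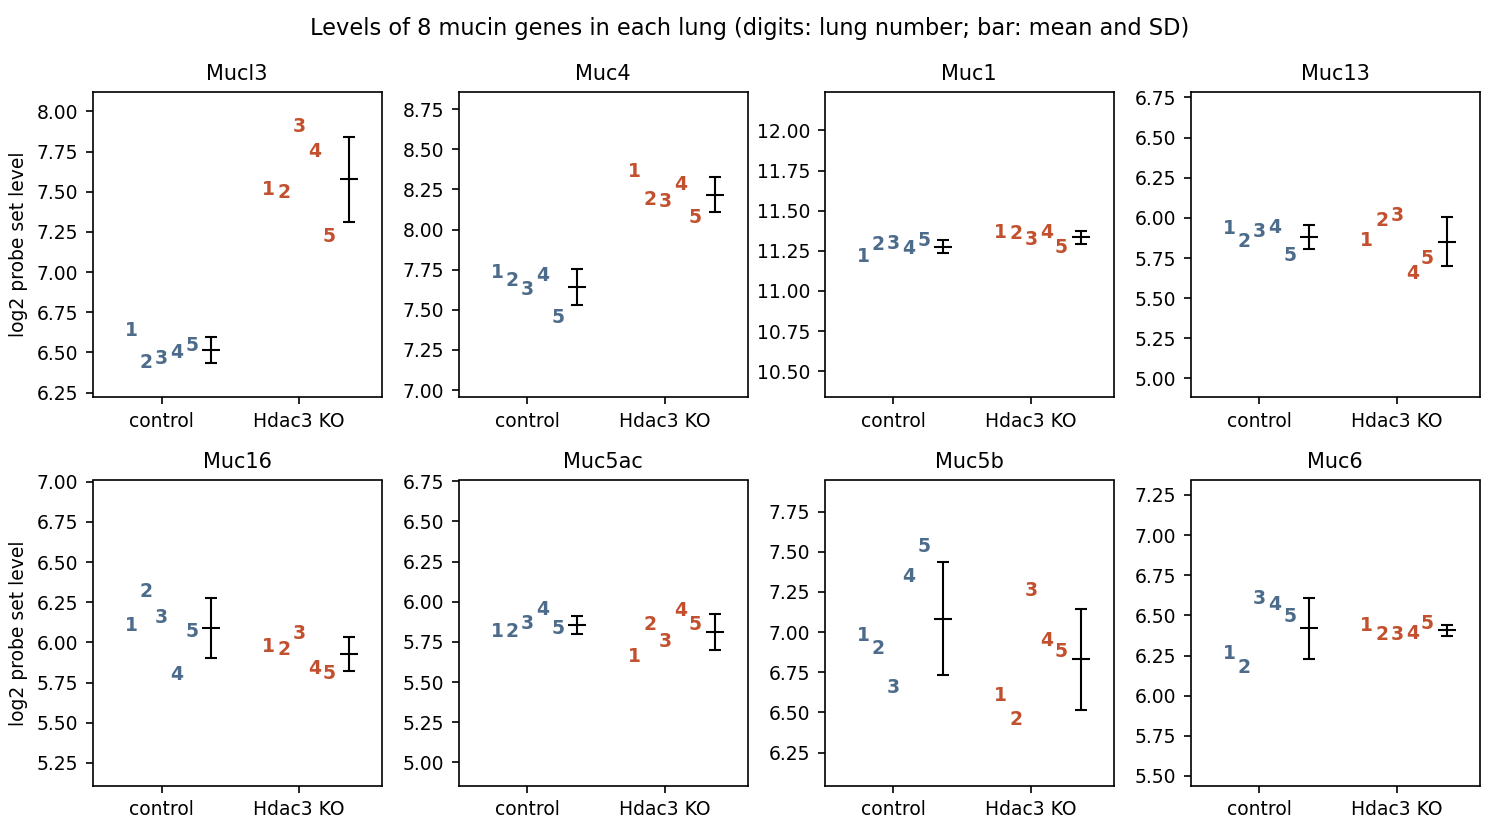
Log2 probe set level (vertical axes, each spanning the same range) of 8 mucin genes in 5 control and 5 Hdac3 knockout lungs; each digit is the number of a lung, and the bar gives the mean and SD of the group. The groups of Mucl3 and Muc4 do not overlap, and those of the other 6 genes do.

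Mucl3 showed the largest change of the group. It is a mucin-like gene of the major histocompatibility region, and its older symbol comes from the human region linked to diffuse panbronchiolitis, an airway disease. Control lungs 1 to 5 had log2 levels of 6.64, 6.43, 6.46, 6.50 and 6.54, and knockout lungs 1 to 5 had 7.51, 7.49, 7.91, 7.75 and 7.22. The lowest knockout lung, number 5, lay above the highest control lung, number 1. The control levels stood close above 6.30, the level below which 20% of the values of all genes lie, so the rise started from little signal. Group means were 6.52 ± 0.081 and 7.58 ± 0.26 (SD, n = 5 each), a log2 change of 1.06 ± 0.11 (SE, limma adjusted p = 0.000161) or 2.09-fold. Knockout lungs thus spread more widely than controls, and their difference from the control of the same number ran from 0.67 to 1.45. Ordered by size, this was number 24 of the 276 rises called among all genes. By the exact permutation test over all 252 assignments of the lungs, two-sided, p was 0.00794, the smallest that 5 against 5 can give.

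Muc4 is a large membrane mucin that binds the receptor ErbB2. Control lungs 1 to 5 had log2 levels of 7.73, 7.68, 7.63, 7.71 and 7.45, and knockout lungs 1 to 5 had 8.36, 8.19, 8.17, 8.28 and 8.07. Control lung 5 was the lowest of its group and knockout lung 5 the lowest of the other. Group means were 7.64 ± 0.11 and 8.22 ± 0.11 (SD, n = 5 each), a log2 change of 0.57 ± 0.069 (SE, limma adjusted p = 0.000487) or 1.49-fold. The differences between lungs of the same number were narrow, from 0.51 to 0.63, and the exact permutation p was again 0.00794 (two-sided). It stood at place 90 of the 276 rises. The plot of changes with their intervals shows how much closer the 5 differences of Muc4 lie than those of Mucl3.

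**Figure D2:**
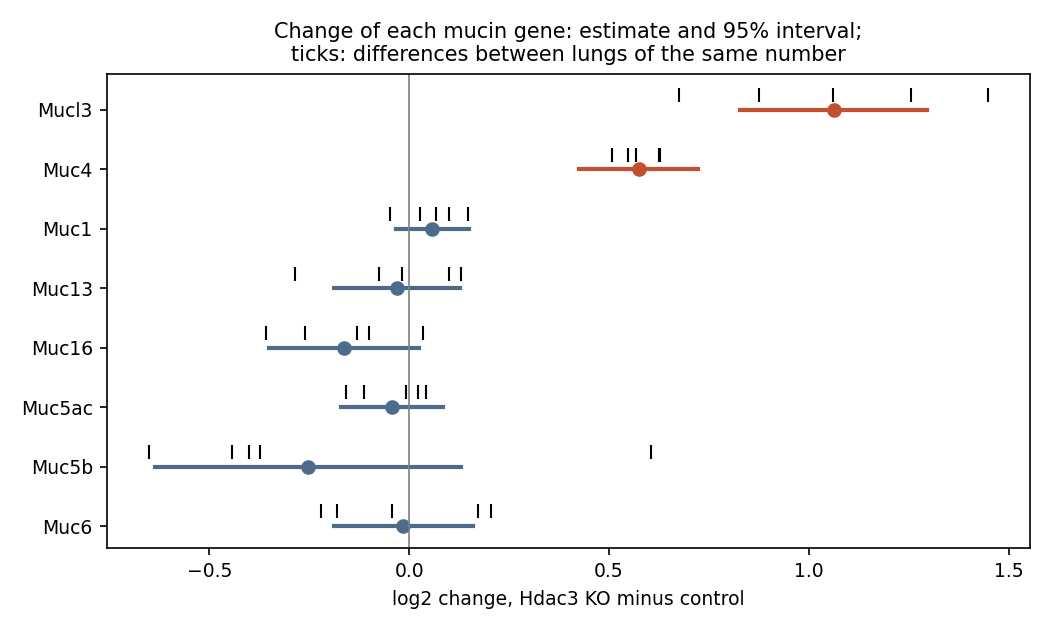
Log2 change (knockout minus control, horizontal axis) of 8 mucin genes; points and lines give limma's estimate and 95% interval, and ticks above them the differences between lungs of the same number. Intervals of Mucl3 (0.83 to 1.30) and Muc4 (0.43 to 0.72), in red, exclude 0, and the others, in blue, include it.

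Both calls held without any single lung. Leaving out each of the 10 lungs in turn, the log2 change of Mucl3 ran from 0.98 to 1.15 and its adjusted p was at most 0.000824; that of Muc4 ran from 0.53 to 0.61, with an adjusted p of at most 0.00231. The lungs were also split into numbers 1 to 3 and numbers 4 and 5, sets that no label names. In lungs numbered 1 to 3 the Mucl3 log2 change was 1.13 and the Muc4 log2 change 0.56 (limma adjusted p = 0.00243 and 0.00512). In lungs numbered 4 and 5 alone these log2 changes were 0.97 and 0.60 (limma adjusted p = 0.232 and 0.296). That last fit has 2 lungs a group and called 2 of all genes.

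Muc20, a membrane mucin known to bind the receptor Met, has no value of its own here. In RefSeq it lies next to Muc4, the genes run towards each other from opposite strands and they overlap at their ends, and the array has a probe set assigned to both. In this shared probe set control lungs 1 to 5 had log2 levels of 6.93, 7.11, 6.75, 7.21 and 6.90, and knockout lungs 1 to 5 had 6.60, 6.53, 6.88, 6.61 and 6.49. Knockout lung 3 lay above control lung 3, and the other 4 knockout lungs lay below all controls. The mean was 6.98 ± 0.18 in control and 6.62 ± 0.15 in knockout (SD, n = 5 per group), a log2 change of -0.36 ± 0.095 (SE, 95% interval -0.56 to -0.15). In a fit over all 24888 probe sets, in which 2.39% were called, it did not pass (limma adjusted p = 0.0900), but it did without knockout 3 (-0.42, adjusted p = 0.0389). The exact permutation p was 0.0159 (two-sided).

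The Muc4 probe set was higher in the knockout lung of all 5 same-numbered pairs, and the shared probe set was lower in 4 of them and higher in number 3. The log2 level of Muc4 minus that of the shared probe set was 0.66 ± 0.17 in control and 1.59 ± 0.18 in knockout (SD, n = 5 per group), with no overlap of the groups (0.51 to 0.88, and 1.29 to 1.76). The means differed by 0.93; this contrast was formed after both values were seen, so it is given without a test. Which of the transcripts the shared probe set reads was not tested, so it gives no direction for Muc20.

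**Figure D3:**
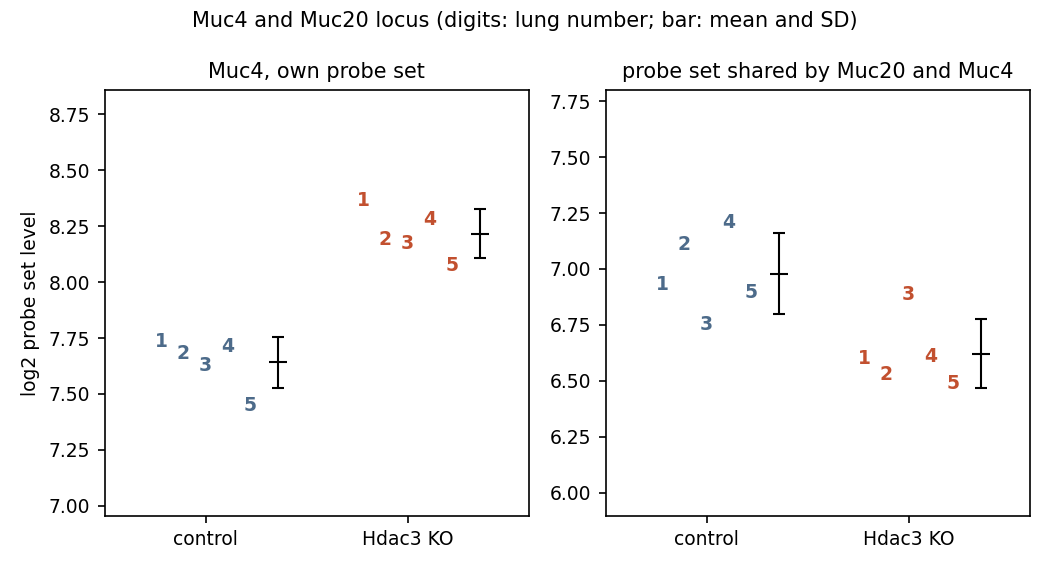
Log2 probe set level (vertical axes, equal ranges) of the Muc4 probe set and of the probe set assigned to both Muc20 and Muc4, in 5 control and 5 Hdac3 knockout lungs; digits are lung numbers and bars the mean and SD. Muc4 rose from 7.64 to 8.22, while the mean of the shared probe set was 6.98 in control and 6.62 in knockout.

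Muc1, a membrane mucin found on most simple epithelia and on alveolar type 2 cells, had nearly equal levels in all lungs. Control lungs 1 to 5 had log2 levels of 11.21, 11.29, 11.29, 11.26 and 11.32, and knockout lungs 1 to 5 had 11.36, 11.36, 11.32, 11.36 and 11.27. Knockout lungs 1 to 4 lay above every control, and knockout lung 5 within the control range. The log2 change was 0.058 ± 0.042 (SE, 95% interval -0.033 to 0.15, limma adjusted p = 0.632), and the exact permutation p, unadjusted, was 0.0476 (two-sided). Its upper bound of 0.15 lies below the lower bounds of Muc4 and Mucl3.

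Muc16 and Muc13 are the remaining membrane mucins with values. Muc16, the antigen CA125 of mesothelium and airway epithelium, had a mean of 6.09 ± 0.19 in control and 5.93 ± 0.10 in knockout (SD, n = 5 per group). Control lungs 1 to 5 were at 6.11, 6.32, 6.16, 5.80 and 6.07 and knockout lungs 1 to 5 at 5.98, 5.96, 6.06, 5.83 and 5.81, so that 4 of 5 knockout lungs lay below the control of the same number and the groups overlapped. Its log2 change was -0.16 ± 0.086 (SE, 95% interval -0.35 to 0.025, limma adjusted p = 0.461). Muc13, a membrane mucin of the gut lining, ranged from 5.77 to 5.94 in control and from 5.65 to 6.02 in knockout lungs. The log2 change of Muc13 was -0.030 ± 0.072 (SE, 95% interval -0.19 to 0.13, limma adjusted p = 0.927). The means of Muc5ac, Muc13 and Muc16 lay under 6.30, the level below which 20% of the values of all genes lie, so little signal stood behind these 3 genes.

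Among the gel-forming mucins, Muc5b varied most between lungs of 1 group. It is the main mucin of airway clearance in the mouse. Control lungs 1 to 5 had log2 levels of 6.98, 6.90, 6.66, 7.35 and 7.53, and knockout lungs 1 to 5 had 6.61, 6.46, 7.26, 6.95 and 6.88. Knockout lung 3 exceeded control lung 3 by 0.61, and the other 4 knockout lungs lay below their control by 0.37 to 0.65. The mean was 7.08 ± 0.35 in control and 6.83 ± 0.31 in knockout (SD, n = 5 per group), and the log2 change of -0.25 ± 0.18 (SE, 95% interval -0.64 to 0.13) was not called (limma adjusted p = 0.617). In lungs numbered 4 and 5 the Muc5b log2 change was -0.53, and in lungs 1 to 3 it was -0.070, neither called (limma adjusted p = 0.235 and 0.926). Lung number 3 also went against the others in the probe set shared by Muc20 and Muc4, where it was the only knockout lung above its control.

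Muc5ac, the mucin of goblet cell metaplasia, lay between 5.81 and 5.95 in control and between 5.66 and 5.94 in knockout lungs. Its log2 change was -0.043 ± 0.059 (SE, 95% interval -0.17 to 0.085, limma adjusted p = 0.837). Muc6, the mucin of gastric glands, had a log2 change of -0.014 ± 0.079 (SE, 95% interval -0.19 to 0.16, limma adjusted p = 0.971). The control lungs of Muc6 were at 6.26 and 6.18 for numbers 1 and 2 and from 6.49 to 6.60 for numbers 3 to 5, while the 5 knockout lungs lay between 6.38 and 6.45. The signs of Muc5ac, Muc6 and Muc13 were not stable across alternatives.

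Muc6, Muc2, Muc5ac and Muc5b follow one another on chromosome 7 in RefSeq. Muc2, the intestinal gel-forming mucin, had means of 6.89 and 6.83 and was not called (limma adjusted p = 0.830), nor was any of the nearest measured genes beside the cluster, Gm16982, Ap2a2, Tollip and Mob2. Beside Muc4 and Muc20 on chromosome 16, Tnk2, Tnk2os, Smbd1 and Rubcn were not called. Beside Mucl3 on chromosome 17, Sfta2, a secreted peptide gene of the lung, fell by 0.26 on the log2 scale (SE 0.062, limma adjusted p = 0.0446), while Vars2, the mucin-like Gm9573 and 2300002M23Rik were not called. The 11 neighbours that were not called had log2 changes from -0.098 to 0.25. The Sfta2 call was lost without any 1 of 8 lungs (adjusted p from 0.0790 to 0.111) and held without control 4 or knockout 5.

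Across the 10 lungs the genes whose levels were most like those of Mucl3 were Slc25a45, Krt18 and Arhgap45, with a Pearson correlation of 0.981, 0.971 and 0.970. These values hold the difference between groups, since the groups do not overlap in any of the 4 genes, and with 5 lungs a group no relation within a group was tested. Krt18, a keratin of simple epithelia, rose by 1.34 ± 0.072 (SE), Slc25a45, a mitochondrial carrier, by 0.84 ± 0.077 and Arhgap45 by 0.52 ± 0.051, with limma adjusted p of 1.6e-06, 7.8e-05 and 0.00012.

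Other mucin-type glycoproteins were not called, and with 3.12% of all genes called, little can be read from so few members. Of 18 further mucins and sialomucins 10 were measured, among them Muc2, Muc3, Muc3a, Muc19, the endothelial Emcn and Cd34, and podocalyxin (Podxl), and 0 were called by limma (1 with an unadjusted p under 0.05). Their log2 changes ran from -0.16 (Cd164l2, adjusted p = 0.158) to 0.099, with a median of -0.00026; the sialomucin Cd164 had -0.075 (adjusted p = 0.552), and both were lower in 5 of 5 pairs of same-numbered lungs. The enzymes that start O-glycans, the GalNAc transferases, gave 0 calls of 16 by limma (2 with an unadjusted p under 0.05) and a median of -0.013. Galnt13, at low means of 5.98 and 5.61, was called with the replicate block (adjusted p = 0.0246) but not without it (-0.37, adjusted p = 0.0908), and Galnt3, a transferase of epithelia, had -0.16 (adjusted p = 0.203). Of 18 enzymes that extend or cap O-glycans 0 were called (0 with an unadjusted p under 0.05), with a median of -0.039; C1galt1, which makes the core on which most mucin sugars are built, had -0.17 (adjusted p = 0.384) and St3gal2 -0.13 (adjusted p = 0.371).

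Genes of mucin folding, packing and release moved both ways. Of 20 measured, 2 rose, 1 fell and 17 did not pass the test, against 3.12% of all genes called. The median log2 change was -0.012. The list mean ran from 8.7778 to 8.8123 in control and from 8.7090 to 8.7776 in knockout lungs, so the groups nearly touched without overlap. Vamp8, a SNARE protein of mucin granules, rose by 0.29 ± 0.059 (SE, limma adjusted p = 0.0169), from 10.24 to 10.44 in control to 10.53 to 10.75 in knockout lungs. Stxbp2 (Munc18-2), which guides SNARE assembly in granule release, rose by 0.19 ± 0.045 (adjusted p = 0.0432, and 0.0593 with the replicate block). Cftr, the chloride and bicarbonate channel that hydrates mucus, fell by 0.64 ± 0.16 (adjusted p = 0.0486). With the block Creb3l1 and Rab3d were called as well, at log2 changes of -0.32 and -0.34 (adjusted p = 0.0415 and 0.0172, and 0.0761 and 0.170 without it). Leaving out single lungs, the call of Stxbp2 held only without knockout 5 (otherwise adjusted p from 0.0718 to 0.107), and that of Cftr only without control 1 or knockout 5 (otherwise 0.0546 to 0.117). The disulfide isomerase Agr2, needed to fold Muc2 and Muc5b, had means of 5.91 and 5.69 (adjusted p = 0.196).

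Of 17 regulators of mucous and secretory cells, 3 fell, 1 rose and 13 did not pass the test, against 3.12% of all genes called. The median log2 change was -0.048. The list mean ran from 9.02 to 9.15 in control and from 8.90 to 8.99 in knockout lungs, without overlap. Gabrp, a GABA receptor subunit of airway epithelium, fell by 1.13 ± 0.14 (SE, limma adjusted p = 0.000779) and the ETS factor Ehf by 0.44 ± 0.071 (adjusted p = 0.00496), in both with all knockout lungs below all controls. Foxa1 fell by 0.42 ± 0.091 (adjusted p = 0.0276), and Foxa3, a factor that can drive goblet cell genes, rose by 0.20 ± 0.047 (adjusted p = 0.0408, and 0.0660 with the replicate block). Without single lungs the call of Foxa1 held only for control 1, control 3 or knockout 5 (otherwise adjusted p from 0.0533 to 0.0765), and that of Foxa3 only for control 2 or knockout 5 (otherwise 0.0614 to 0.112). With the block Sox2 and Klf5 were called as well, at log2 changes of -0.64 and 0.23 (adjusted p = 0.00936 and 0.0404, and 0.0553 and 0.132 without it). Spdef, the factor needed for goblet cells, had means of 7.12 and 6.99 (adjusted p = 0.295).

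Of 14 genes known as partners of membrane mucins, 4 rose, 1 fell and 9 did not pass the test, against 3.12% of all genes called. The median log2 change was -0.0063. The list mean ran from 9.77 to 9.86 in control and from 9.84 to 9.94 in knockout lungs, with overlap. Ezr, the ezrin that ties membrane proteins to cortical actin, rose by 0.66 ± 0.080 (SE, limma adjusted p = 0.000541). Msln, the mesothelin that binds Muc16, rose by 0.46 ± 0.084 (adjusted p = 0.0103), while Muc16 itself was not called. The kinase Src and the receptor Egfr rose by 0.27 ± 0.049 and 0.26 ± 0.053 (adjusted p = 0.0102 and 0.0182), and Met, the receptor that Muc20 binds, fell by 0.46 ± 0.095 (adjusted p = 0.0195). Erbb2, the receptor bound by Muc4, had a log2 change of -0.068 ± 0.053 (adjusted p = 0.665). Omitting control 1 or control 3 raised the adjusted p of Egfr to 0.0564 or 0.0536. Over the 6 lists together, 12 of 95 measured genes were called, 7 higher and 5 lower, which is 12.6%. Without knockout 1 or knockout 3 the count was 7. The lists were chosen with earlier results of these data known, so this share cannot be weighed against that of all genes.

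**Figure D4:**
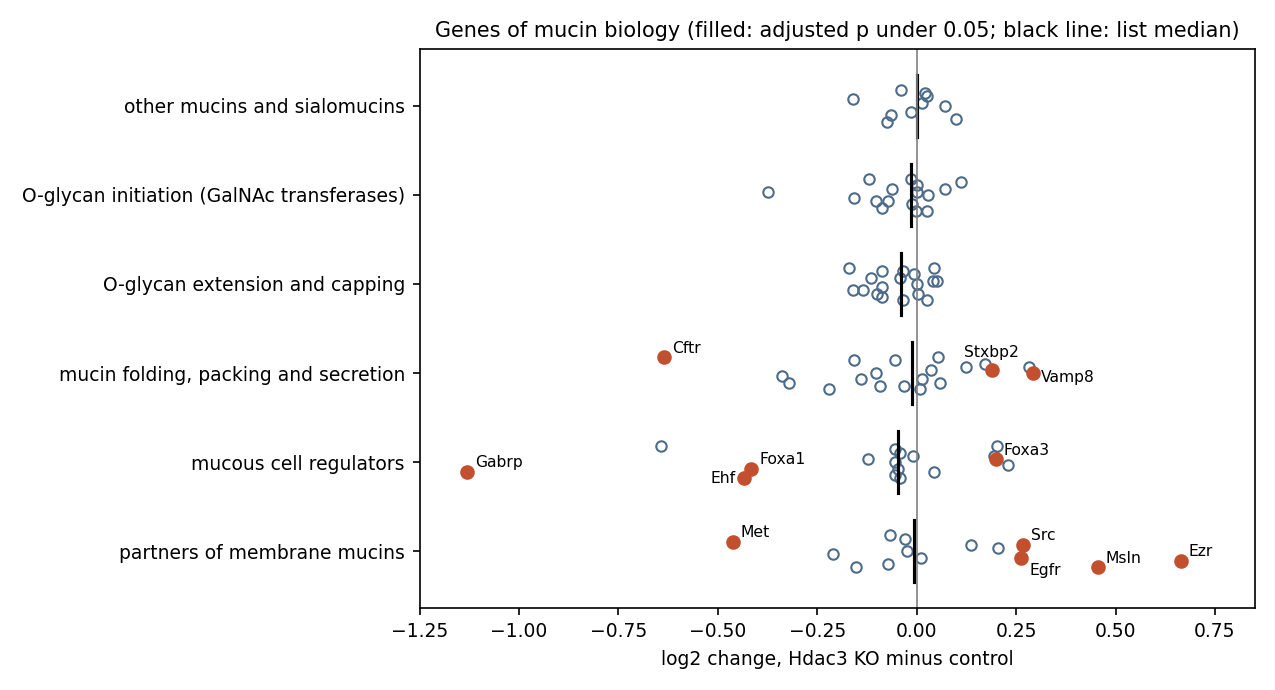
Log2 change (knockout minus control, horizontal axis) of each measured gene of 6 lists of mucin biology; filled points passed the test and are named, open points did not, and the black line is the median of the list. Calls lie in the lists of secretion, regulators and partners, and 0 in the lists of other mucins and O-glycan enzymes.

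Some markers of cells that can make mucins differed between the groups as well. Their part in the rise of Mucl3 and Muc4 was not tested. Over all genes 3.12% were called, and the marker lists were chosen with earlier results of these data known. Of 11 goblet cell markers 2 were called higher, Foxa3 and Zg16. The means of Zg16, 4.77 and 5.32, were both low, and with a floor at 6.30 its call was lost. Agr2, Spdef and Ern2 were at -0.22, -0.12 and -0.10 and Fcgbp at 0.14, none called (limma adjusted p = 0.196, 0.295, 0.302 and 0.432). The median log2 change of the goblet list was -0.0056. The mean level of this list lay from 6.09 to 6.25 in control and from 6.11 to 6.22 in knockout lungs. Of 11 club cell markers 5 fell and 1 rose, with list means of 9.63 to 9.83 in control and 9.19 to 9.45 in knockout; Scgb3a2, Chad and Aldh1a7 fell by 1.06, 1.26 and 0.58, as did Gabrp and Cbr2 (the latter by 0.30), and Gsta3 rose by 0.67 (limma adjusted p = 0.0027). The defining club cell genes Scgb1a1 (-0.15, adjusted p = 0.469) and Cyp2f2 (0.064, adjusted p = 0.717) were not called. Of 7 basal cell markers listed, 5 were measured, and Krt5 and Dapl1 were not. Of the 5, 2 rose, Krt15 by 1.75 and Aqp3 by 0.68, with list means of 6.63 to 6.76 and 7.04 to 7.35. The defining Trp63 and Krt14, at -0.049 and 0.13, were not called, and the median log2 change of the basal list was 0.15. Of 8 mesothelial markers Krt19 and Msln rose by 0.67 and 0.46 and Igfbp5 fell by 0.38 (list means 9.11 to 9.36, and 9.20 to 9.40). The median log2 change of the mesothelial list was -0.0090. Upk3b and Gpm6a were at -0.26 and -0.17, Wt1 at -0.00073 and Upk1b at 0.19, none called (limma adjusted p = 0.102, 0.362, 0.999 and 0.666).

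For the further marker lists the share called over all genes was again 3.12%. Of 11 alveolar type 2 markers Etv5 and Lpcat1 rose by 0.61 and 0.34 (list means 11.67 to 11.79 in control and 11.58 to 11.90 in knockout). Of 10 type 1 markers Col4a3, Col4a4 and Pdpn fell by 0.70, 0.50 and 0.52 (10.40 to 10.57, and 10.30 to 10.63). The type 2 list had a median log2 change of -0.0052: Sftpa1 was lower in 5 of 5 pairs of same-numbered lungs but not called (-0.48, limma adjusted p = 0.0899), and Lyz2, Sftpb and Sftpc, not called either, had -0.20, -0.0052 and -0.016. The type 1 list had a median of 0.018: Aqp5 and Rtkn2 had 0.47 and 0.40 (adjusted p = 0.115 and 0.327), Rtkn2 was called with the replicate block (adjusted p = 0.00862), and Ager had 0.0030. Of 9 ciliated cell markers Dnah11, Dnah9 and Myb fell by 0.36, 0.27 and 0.46 (7.95 to 8.09, and 7.83 to 7.98). Others of the ciliated list were above 0 and not called: Dnah5 had 0.15 with no overlap of the groups (limma adjusted p = 0.101), the defining factor Foxj1 had 0.12 and was higher in 5 of 5 pairs (adjusted p = 0.371), and Tekt1 and Tekt4 had 0.026 and 0.062. Of 12 stomach and foregut markers Krt13 rose by 0.74, with means of 5.76 and 6.50, and Cblif fell by 1.76 (list means 6.40 to 6.64, and 6.40 to 6.57). Of 4 pancreas markers Pnliprp1 and Cela1 fell by 1.34 and 0.32 (7.22 to 7.40, and 6.85 to 7.03). The remaining pancreas markers, Cpa1 and Cel, were at 0.099 and 0.020 and not called (limma adjusted p = 0.583 and 0.966). The calls of Myb (without knockout 3, with values floored, and with the mean of its probe sets, where the Myb log2 change was -0.26, adjusted p = 0.0747), Igfbp5 (without 5 of the lungs or with values floored) and Krt13 (with values floored) were lost. Of 8 endothelial, 8 leukocyte and 7 cartilage markers 0 were called by limma (0, 3 and 0 with an unadjusted p under 0.05). The leukocyte list mean was lower in every knockout lung than in any control (7.21 to 7.30 in control, 7.12 to 7.19 in knockout), while those of endothelium (a mean of 11.07 in both groups) and cartilage (6.59 to 6.87, and 6.68 to 6.88) overlapped. The part of leukocyte markers in the other results was not tested. The 2 with the smallest p in each had log2 changes of 0.093 (Esam), 0.097 (Egfl7), -0.27 (Laptm5), -0.33 (Ccr2), 0.072 (Comp) and -0.074 (Cnmd); Laptm5 and Ccr2 were called with the replicate block (adjusted p = 0.0227 and 0.0282).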

How the data were processed

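Per the labels' protocols, lungs of embryos at E18.5 were kept in RNAlater, and 100 ng of total RNA was primed from poly(T), amplified and biotin-labelled. The authors deposited 1 table of log2 probe set values, 24888 probe sets by 10 lungs with 0 missing values; the submitters' processing notes name RMA, oligo and limma without versions. The annotation's genome build and any filter on rows: not given in the sources used here. Array medians lay between 7.43 and 7.46, and the correlation between lungs from 0.984 to 0.995. Precision is limited by the number of lungs, and the median SE of a log2 change was 0.066. Nothing beyond the label of biological replicate says how the lungs were sampled. The p-values thus set the difference between groups against the spread between these lungs only.

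By the annotation table of the platform, 18922 probe sets had 1 symbol, 1343 several and 4623 none. Each gene took its probe set with the highest mean over the 10 lungs. Knockout and control were compared with limma 3.58.1 in R 4.3.3 (lmFit and eBayes, two-sided, Benjamini-Hochberg over 17919 genes, threshold 0.05), without a block and without a filter on low values; the steps were tested on simulated data. Exact permutation tests over 252 assignments were added for single values. The shared probe set was fitted over all probe sets. Promoters came from the RefSeq table on GRCm38.p6. The genes and lists were chosen with earlier results of these data known. The rule for naming took all 10 mucin genes, Hdac3, the 3 genes most like the mucin gene with the smallest p, and 2 neighbours on each side. From each of the 18 lists it took up to 4 called genes with the smallest p, or 2 genes where fewer than 2 were called. Agr2, Spdef, Erbb2, Met, Muc2, Creb3l1, Rab3d, Sox2 and Klf5 were named outside this rule, after their values were seen. So were further cell markers, with or against their list, and the genes given without values.

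Deviations from the group means of same-numbered lungs correlated from 0.154 to 0.485 (different numbers: median -0.083, highest 0.330, above 3 of the 5 same-number values). All 5 were over 0.1, so the numbers may pair the lungs, which rests on the data and not on the labels. The main fit used no pairing, and the fit with the replicate number as a block is given as an alternative. With the replicate block 846 genes (4.72%) were called, against 559 without it. The alternatives were other probe set rules, a floor, a filter, 2 normalizations, another prior, array weights, blocks and leaving out lungs.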

Additional observations from a re-analysis of the deposited data

Results flagged for a closer look

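Among 106 sets of 5 lungs, 3 had a lung set far apart from the other 4 by Dixon's test, where chance gives about 1 in 20. The sets were both groups of each mucin gene with a value, the shared probe set, Hdac3 and the list genes taken by the naming rule. Foxa3 was highest in knockout lung 1, at 7.23 against 7.13 in the nearest other knockout lung. Aqp3 was lowest in control lung 5, at 6.17 against 6.49. Pdpn was highest in knockout lung 4, at 10.08 against 9.63. Other genes given here were not screened. Among these, Gsta3 was lowest in knockout lung 5, at 7.43 against 7.87 in the nearest other knockout lung. Nkx2-1 was highest in knockout lung 5, at 11.13 against 10.93. No mucin gene, and not the probe set shared by Muc20 and Muc4, had such a lung.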

How the results depend on the processing

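Precision is limited by having 5 lungs a group, and 3 of the 8 mucin genes lay near the bottom of the signal range. Over all genes 559 were called by limma, 846 with the replicate block, 2 in lungs numbered 4 and 5 alone, and from 393 to 699 without single lungs. With number sets 1 to 3 and 4 to 5 as a block 910 were called, though no label names these sets. Of the mucin genes 2 were called, 1 among genes above the median level (a filter that drops Mucl3), 0 in lungs 4 and 5, and 2 to 2 without single lungs. Of the genes of the mucin lists 12 were called, 7 in lungs 1 to 3, 0 in lungs 4 and 5, and from 7 to 16 without single lungs. The fit of lungs 4 and 5 has fewer samples; the cause of the other differences was not tested. Beyond the calls given above, the replicate block also added Mcidas, Rtkn2 and Upk3b and changed no other call among the mucin genes and the listed genes.

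Among named genes, values floored at 6.30 also ended the calls of Cftr, Foxa1 and Sfta2, and median centring those of Stxbp2 and Foxa3. Muc4 kept its direction under 23 alternatives (0.53 to 0.61) and Mucl3 under 22 (0.97 to 1.15), and both lost the call in lungs 4 and 5 alone. The mucin genes that turned sign were all uncalled: in lungs 1 to 3 Muc6 was at 0.051 and Muc13 at 0.052, and in lungs 4 and 5 Muc5ac was at 0.0067. In lungs 4 and 5 Egfl7, Tnk2os, Vars2 and Mob2 were at -0.025, 0.081, 0.035 and -0.030. Without single lungs Muc6 ran from -0.075 to 0.031, Muc13 from -0.071 to 0.021, Vars2 from -0.060 to 0.031, Cnmd from -0.13 to 0.0075, Tnk2os from -0.091 to 0.018 and Gm16982 from -0.075 to 0.015. Over the named genes 1316 comparisons with an alternative kept direction and side of the threshold, 115 lost the call, 10 gained it and 18 turned sign.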
